A study of Saccharomyces cerevisiae with 2 samples.

Results

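RTC3, DDR2, HOR7, SIP18, GRE1 and DDR48 are 6 genes of *Saccharomyces cerevisiae* that are known for their induction by stress, and most of them encode small proteins. They were chosen by name, with their rise in these libraries already in view, and each was found as an mRNA in the deposited table of 6420 features, of which 5995 are mRNAs. The study compared cdc55Δ cells, which lack Cdc55p, the B55-type regulatory subunit of protein phosphatase 2A, with WT cells. Both were in the background of BY4741, a haploid laboratory strain, and both spent 6 h at 30 °C, unshaken, in YPD20, a yeast extract and peptone medium with a high glucose content. One culture of each strain gave 1 RNA-seq library. No difference could be checked against replicates, so each value compares these 2 libraries, and every interval is a 95% Clopper-Pearson interval that covers counting error alone.

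The counts summed to 30133454 in the cdc55Δ library and to 33233285 in the WT library. CDC55 itself had 1 count in cdc55Δ and 2614 counts in WT, at least 775-fold lower after scaling against a floor of 3 counts per library. Markers of the strain were as its genotype sets them for mating type, with 545 counts in cdc55Δ and 1549 in WT for the a-factor gene MFA1, against 7 and 15 for the α-factor gene MF(ALPHA)1. URA3, MET17 and LEU2, which BY4741 lacks, had at most 2 counts, and HIS3, which it lacks in part, had 1275 counts in cdc55Δ and 1624 in WT. Counts were scaled by TMM and increased by 0.5, and their ratio in cdc55Δ to WT is given as a log2 fold change. The 5705 features that averaged 50 or more normalized counts are called well counted. The middle 95% of their log2 fold changes lay between -0.63 and 0.89 on the log2 scale, and the median was 0.00.

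Hydrophilins are glycine-rich and strongly hydrophilic proteins that stay largely unfolded in solution, and they are known from desiccation and osmotic stress in bacteria, plants and fungi. In yeast, many genes of the general stress response carry the stress response element (STRE), a short motif bound by the zinc finger factors Msn2p and Msn4p. Osmotic stress acts in addition through the mitogen-activated protein kinase Hog1p. SIP18 and GRE1 are a pair of paralogs left from the whole genome duplication, as are DDR2 and HOR7.

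All 6 genes were higher in the cdc55Δ library, where 50.4% of all well-counted features were higher too. The levels and the changes of the 6 genes lay far apart. RTC3, GRE1 and DDR48 were at least 2-fold higher, and SIP18, DDR2 and HOR7 were less than 2-fold higher. The rule that named the genes used this contrast, so these counts are a description. Of all well-counted features, 1.91% rose 2-fold or more in cdc55Δ, and 1.03% fell 2-fold or more. The minimum of 50 was passed by 5 of the 6 genes, SIP18 just above it at 50.3 normalized counts, and DDR2 fell short of it at 22.4. The interval of each of the 6 genes lay wholly above 0, as it did for 28.8% of the 6371 features with any count. For SIP18 and DDR2, with few reads, it was wide.

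**Figure D1:**
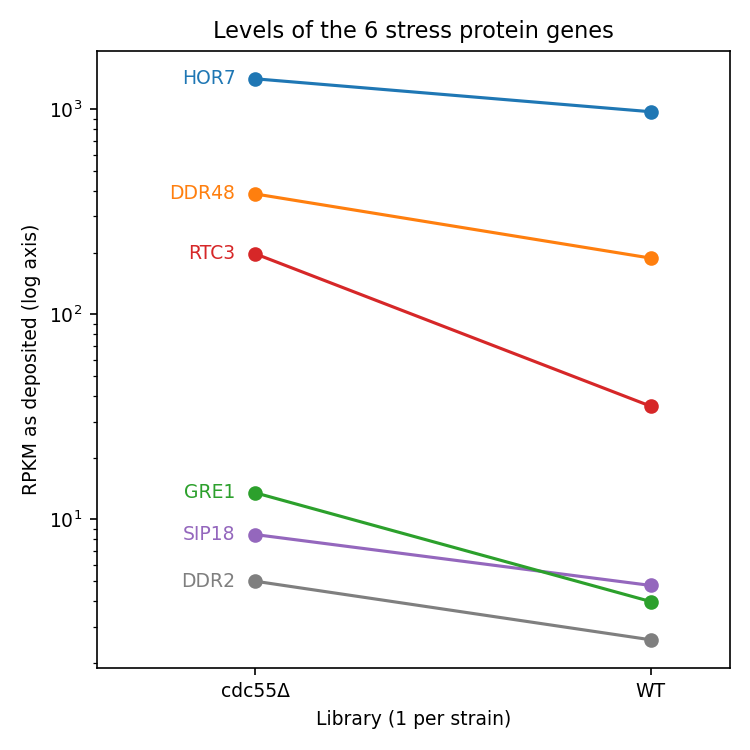
RPKM as deposited, on a log axis, of the 6 genes in the cdc55Δ library and the WT library, 1 library per strain, joined by a line for each gene. HOR7 is highest in both, at 1407 RPKM in cdc55Δ and 972 in WT, and DDR2 lowest, at 4.996 and 2.59; the lines of SIP18 and GRE1 cross.

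Level and change did not follow each other among the 6 genes. HOR7 and DDR48 together held 90.8% of the reads of the 6 genes in cdc55Δ and 96.4% in WT, and they had the smallest and the third largest log2 fold change. In RPKM, the deposited level per length, the order in cdc55Δ was HOR7, DDR48, RTC3, GRE1, SIP18 and DDR2. In WT the order was the same except that SIP18 stood above GRE1. Neighbours in the order differed beyond counting error in cdc55Δ, where the lowest interval bound was that of SIP18 over DDR2, a ratio of 1.69 (1.06 to 2.74). In WT the intervals of SIP18 over GRE1 (0.78 to 1.81) and of GRE1 over DDR2 (0.88 to 2.84) both included 1, so these neighbours were not resolved. The intervals of the log2 fold changes of SIP18 and DDR2 overlapped those of GRE1, DDR48 and HOR7. Such overlap does not settle the places of SIP18 and DDR2 in the order of change. The 6 genes summed to 0.0829% of all counts in cdc55Δ and 0.0434% in WT. In bulk RNA, a larger share of cells with a transcript and more transcript per cell cannot be told apart.

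**Figure D2:**
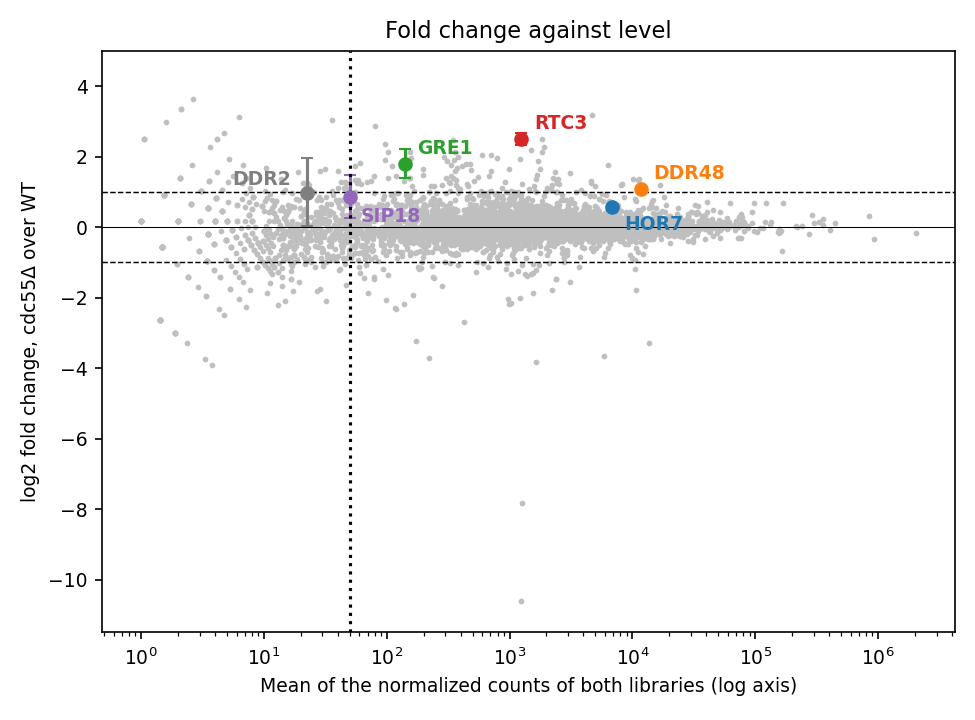
Log2 fold change of cdc55Δ over WT against the mean normalized count of both libraries (log axis) for features with a mean of at least 1 (grey) and for the 6 genes (coloured, bars: 95% counting intervals). The dotted line marks the minimum of 50 normalized counts and the dashed lines 2-fold; RTC3 stands at 2.49, GRE1 at 1.78 with a wider interval, and HOR7 at 0.56 with a narrow one.

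RTC3 (YHR087W, plus strand of chromosome VIII from 280820 to 281155 in the R64 assembly) encodes a protein that resembles SBDS, the human protein altered in Shwachman-Diamond syndrome, and is annotated as involved in RNA metabolism. It had 1997 counts in cdc55Δ and 398 counts in WT, or 197 RPKM in cdc55Δ and 35.6 RPKM in WT. The log2 fold change was 2.49 (2.34 to 2.65), a 5.63-fold difference and the fourth largest rise of a well-counted feature. Ranked by RPKM among 5995 mRNAs, RTC3 held place 574 in cdc55Δ and place 2795 in WT, so it was a highly expressed gene in one library and an average one in the other. SDO1, which encodes the yeast SBDS protein itself and acts in the maturation of the large ribosomal subunit, had 2068 counts in cdc55Δ and 2353 in WT, a log2 fold change of -0.02 (-0.10 to 0.07). The proteins Rtc3p and Sdo1p share 28.9% of 90 aligned residues.

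GRE1 (YPL223C, minus strand of chromosome XVI from 128632 to 129138) encodes a cytoplasmic hydrophilin that is needed for survival of desiccation and is known to be induced through Hog1p. It had 206 counts in cdc55Δ and 67 counts in WT, or 13.5 RPKM in cdc55Δ and 3.98 in WT. Its log2 fold change was 1.78 (1.38 to 2.21), rank 26 of the rises. Its paralog SIP18 (YMR175W, plus strand of chromosome XIII from 611016 to 611255), which encodes a hydrophilin that binds phospholipids, had 61 counts in cdc55Δ and 38 counts in WT, or 8.43 RPKM in cdc55Δ and 4.76 in WT. The log2 fold change of SIP18 was 0.84 (0.24 to 1.48). Both genes thus remained among the weakly expressed mRNAs in cdc55Δ, with GRE1 at place 4641 and SIP18 at place 5066 of 5995.

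The balance within this pair does not depend on the scaling of the libraries. SIP18 took 22.8% of the reads of the pair in cdc55Δ (17.9 to 28.4) and 36.2% in WT (27.0 to 46.1). These intervals overlap slightly, which does not settle whether the shares differ. Per kilobase of coding length, the share of SIP18 was 38.5% in cdc55Δ (31.6 to 45.5) and 54.5% in WT (43.9 to 64.4). Per length, GRE1 therefore stood above SIP18 in cdc55Δ beyond counting error, and in WT the order of the pair was not resolved at this depth. The proteins share 36.0% of 75 aligned residues. No stretch of 100 bases of either gene occurs elsewhere in the genome.

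DDR2 (YOL052C-A, minus strand of chromosome XV from 231570 to 231755) and HOR7 (YMR251W-A, plus strand of chromosome XIII from 774752 to 774931) encode proteins of 61 and 59 residues. Ddr2p is found in the vacuole and is known as a multi-stress response protein, and Hor7p, named for its response to hyperosmolarity, is found at the cell periphery. Their coding sequences show how far the paralogs have diverged. Capitals mark the bases that are identical in a global alignment of the pair, 5′ to 3′ from the start codon.
DDR2: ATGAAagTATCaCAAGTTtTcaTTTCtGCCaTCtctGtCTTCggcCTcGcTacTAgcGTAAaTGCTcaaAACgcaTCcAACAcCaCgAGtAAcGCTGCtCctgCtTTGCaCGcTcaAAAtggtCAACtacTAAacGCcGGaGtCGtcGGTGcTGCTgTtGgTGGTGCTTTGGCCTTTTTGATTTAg
HOR7: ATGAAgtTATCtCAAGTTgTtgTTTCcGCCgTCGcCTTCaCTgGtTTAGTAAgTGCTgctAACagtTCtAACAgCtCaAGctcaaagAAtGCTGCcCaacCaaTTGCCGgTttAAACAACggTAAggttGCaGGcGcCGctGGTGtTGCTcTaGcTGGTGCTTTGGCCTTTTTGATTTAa
Of 171 aligned bases, 72.5% are identical, with a longest run of 24 identical bases near the 3′ end, and the proteins share 45.8% of 59 aligned residues. No stretch of 100 bases is shared between the genes or with another site.

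The pair had the greatest difference in level among the 6 genes. HOR7 had 7629 counts in cdc55Δ and 5814 counts in WT, or 1407 RPKM in cdc55Δ and 972 in WT, which placed it at rank 140 in cdc55Δ and rank 167 in WT among 5995 mRNAs. Its log2 fold change, 0.56 (0.51 to 0.61), was the smallest of the 6 and corresponds to a 1.47-fold difference. DDR2 had 28 counts in cdc55Δ and 16 counts in WT, or 4.996 RPKM in cdc55Δ and 2.59 in WT, and a log2 fold change of 0.96 (0.04 to 1.96). Per length, HOR7 was 282-fold above DDR2 in cdc55Δ and 375-fold above it in WT. DDR2 took 0.366% of the reads of the pair in cdc55Δ (0.243 to 0.528) and 0.274% in WT (0.157 to 0.445), and a shift between the paralogs was not detectable at this depth.

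DDR48 (YMR173W, plus strand of chromosome XIII from 608689 to 609981) encodes a cytosolic protein of 430 residues, known as DNA damage-responsive and able to hydrolyse ATP, so it is the one of the 6 that is not small. The library of cdc55Δ had 15047 counts of DDR48 and that of WT 8075 counts, or 386 RPKM in cdc55Δ and 188 in WT. The log2 fold change was 1.07 (1.03 to 1.11), a 2.09-fold difference. Rank by RPKM was 311 in cdc55Δ and 604 in WT. Ddr48p is built of repeats around the tripeptide Ser-Tyr-Gly, which occurs 39 times between residues 79 and 412, most often 8 residues apart. No other yeast protein of 6002 translated from the annotation has it more than 3 times. A stretch of the coding sequence at chrXIII:608914-609105 (plus strand) shows 8 of these tripeptides, with their codons in capitals.
DDR48: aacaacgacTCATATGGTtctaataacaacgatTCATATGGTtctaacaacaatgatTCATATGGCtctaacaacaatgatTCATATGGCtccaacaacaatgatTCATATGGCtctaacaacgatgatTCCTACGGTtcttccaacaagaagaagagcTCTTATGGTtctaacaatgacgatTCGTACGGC
Of 1194 stretches of 100 bases in the gene, 116 occur more than once in the genome, all of them within DDR48 itself. Reads from these repeats could be placed at several sites of the same gene, and how such reads were counted is not given in the sources used here.

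Glycine content and hydropathy, which define hydrophilins, were computed for the protein sequences, translated from the R64 coding sequences. With a criterion of over 6% glycine and a mean Kyte-Doolittle hydropathy below -1, 3 of the 6 proteins qualified, as did 1.25% of 6002 proteins. Gre1p has 13.1% glycine and a mean hydropathy of -1.85, Sip18p 12.7% and -1.55, and Ddr48p 11.4% and -1.96. The residues of Ddr48p include 26.5% serine and 23.3% asparagine. Rtc3p, with 10.8% glycine, has a hydropathy of -0.48, close to the median of all proteins at -0.39. Ddr2p and Hor7p are not hydrophilic, with a mean hydropathy of 0.76 for Ddr2p and 0.78 for Hor7p, above 99.2% of yeast proteins. Glycine content is what all 6 share, at least 9.84%, against a median of 4.94% over all proteins.

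**Figure D3:**
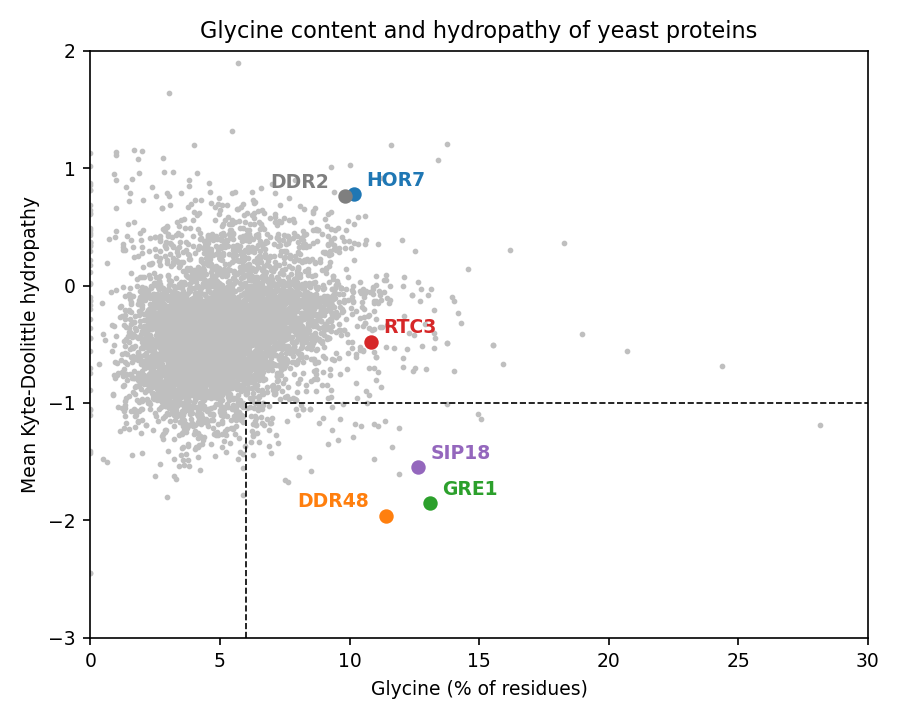
Glycine content (% of residues) and mean Kyte-Doolittle hydropathy of 6002 yeast proteins (grey) and of the 6 proteins (coloured); dashed lines enclose the hydrophilin criterion at the lower right. Gre1p, Sip18p and Ddr48p lie inside it, Rtc3p lies above it, and Ddr2p and Hor7p lie near the hydrophobic edge.

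The sequence upstream of the start codon was searched for the STRE, spelled AGGGG or CCCCT on the strand of the gene. Within 250 bases it was found before 3 of the 6 genes and before 18.8% of 6000 nuclear protein-coding genes. Within 500 bases, 5 of the 6 genes had at least 2 matches, as did 8.13% of all genes. DDR2 had 4 matches, RTC3 3, and HOR7, SIP18 and DDR48 had 2 each. GRE1, with the second largest rise of the 6, had no match in either window. The stretches below hold the matches that lie closest together, in the direction of the gene, with STRE letters in capitals, and leave out the 100 bases next to the start codon.
RTC3, chrVIII:280510-280632, plus strand: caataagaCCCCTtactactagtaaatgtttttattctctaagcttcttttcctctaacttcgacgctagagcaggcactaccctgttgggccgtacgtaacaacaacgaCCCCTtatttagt
DDR2, chrXV:231918-232011, minus strand: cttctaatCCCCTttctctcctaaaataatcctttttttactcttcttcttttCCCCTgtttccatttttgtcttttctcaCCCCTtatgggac
HOR7, chrXIII:774371-774513, plus strand: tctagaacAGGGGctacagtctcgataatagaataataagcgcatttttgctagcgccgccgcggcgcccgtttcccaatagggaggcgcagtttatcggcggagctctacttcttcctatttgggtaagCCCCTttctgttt
SIP18, chrXIII:610620-610659, plus strand: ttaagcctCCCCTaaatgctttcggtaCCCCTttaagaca
DDR48, chrXIII:608425-608553, plus strand: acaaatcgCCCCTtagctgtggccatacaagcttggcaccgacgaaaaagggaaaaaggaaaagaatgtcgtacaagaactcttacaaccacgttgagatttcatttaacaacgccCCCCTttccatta
In DDR2 the capitals start 248, 203 and 175 bases before the start codon, all as CCCCT, and in SIP18 they start 388 and 369 bases before it. HOR7 alone has the match nearest to the gene across the border of the shorter window, 251 to 247 bases before the start codon. A match is a description of the letters and not evidence of binding.

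The same windows were searched for 5 other motifs. The post-diauxic shift element of Gis1p, searched as TAAGGGAT and TTAGGGAT on both strands, was found before HOR7 alone, 196 to 189 bases from the start codon, and within 250 bases before 1.47% of all genes. The heat shock element GAANNTTC was found within 500 bases before DDR2 and DDR48 and before 19.2% of all genes. The full CRE, TGACGTCA, a site of the Hog1p-controlled factor Sko1p, was before none of the 6 and before 0.183% of all genes, and its core ACGTCA was before DDR48 and before 13.5% of all genes within 500 bases. The letters TATAAA were found on either strand within 250 bases before 4 of the 6 genes and before 43.5% of all genes. DDR2 had 4 such matches, some of them overlapping, and 0.367% of all genes had at least 4. DDR2, with the most STRE and TATAAA matches of the 6 within 250 bases, had the lowest RPKM of the 6 in cdc55Δ. In WT its RPKM was not resolved from that of GRE1.

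**Figure D4:**
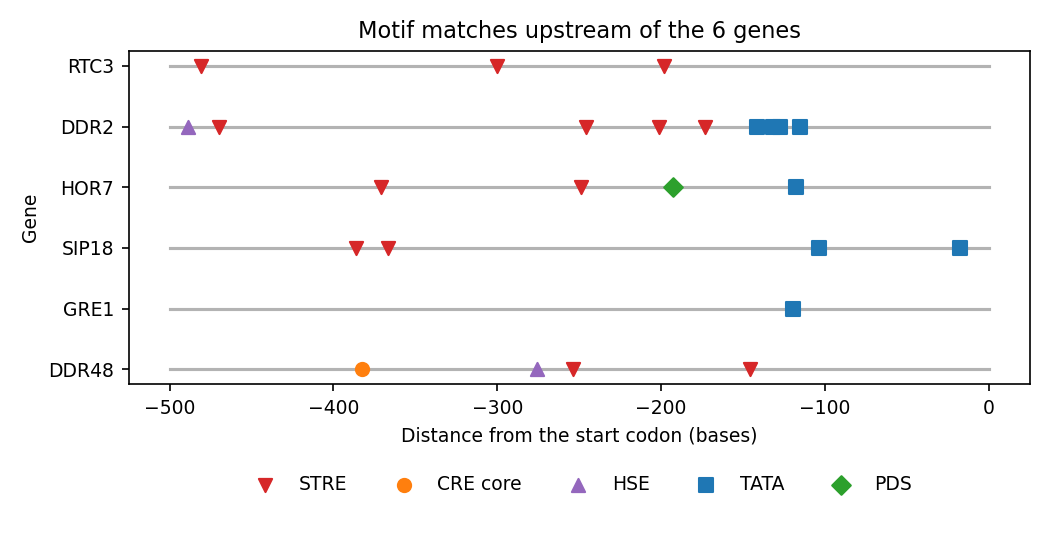
Motif matches in the 500 bases before the start codon of the 6 genes; the x axis is the distance from the start codon in bases, and each marker is a match on either strand (STRE, TATA, PDS, HSE and CRE core). DDR2 has 4 STRE matches upstream of a group of TATAAA matches, and GRE1 has a TATAAA match and no STRE match.

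No annotated gene overlaps any of the 6. Reads from a nearby gene beyond its annotated bounds, or from a transcript outside the annotation, could still add to them. This was not tested. DDR48 and SIP18 lie in one stretch of chromosome XIII with PAI3 between them, a gene for an inhibitor of the vacuolar proteinase A. PAI3 had 159 counts in cdc55Δ and 119 in WT, a log2 fold change of 0.58 (0.23 to 0.94). HOT1, on the other side of DDR48, encodes a factor of the Hog1p pathway and had 980 counts in cdc55Δ and 1151 in WT, a log2 fold change of -0.06 (-0.19 to 0.06). The small gene YMR175W-A, 58 bases downstream of SIP18, had 39 counts in cdc55Δ and 56 in WT. Downstream of RTC3, the ribosome assembly gene RPF1 had a log2 fold change of -0.02, whereas YHR086W-A upstream had 0 counts in cdc55Δ and 4 in WT. Beside GRE1, MMT2 had a log2 fold change of 0.00 and FMP40 one of 0.23. Beside DDR2 they were -0.20 for AIM39 and -0.25 for SPE2, and beside HOR7 -0.75 (-1.82 to 0.20) for GTO3, with 14 counts in cdc55Δ and 27 in WT, and 0.03 for MLO1. None of these 11 neighbours rose 2-fold or more. Among all well-counted features 1.91% did, so a count of 0 among so few genes is near the background. YHR086W-A, YMR175W-A and GTO3 had few counts, so their changes were poorly resolved. Of these, YHR086W-A was more than 2-fold lower, on 0 counts in cdc55Δ and 4 in WT.

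Genes whose RPKM lay nearest to each of the 6 in both libraries were looked up among the well-counted mRNAs. A pattern over 2 libraries is only a pair of levels, so nearness says little. HOR7 had the glycolytic enolase gene ENO1 nearest, at 1274 RPKM in cdc55Δ and 921 in WT, and then RPP0, a gene of the ribosomal stalk. DDR48 lay nearest to LSP1, which encodes an eisosome protein, and to YGP1, which encodes a secreted glycoprotein of stress and starvation, at 466 RPKM in cdc55Δ and 190 in WT. GRE1 lay nearest to the yapsin gene YPS6 and to GLC3, the glycogen branching enzyme gene. DDR2 lay nearest to YDL218W and CIM1, and SIP18 to FMP33 and YKL162C. RTC3 had no close match, with PNS1 and ALD4 at distances of 0.66 and 0.84 on the log2 scale, against at most 0.27 for the other 5 genes.

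Other genes of the same responses were listed without the 6. Of 5 genes for further proteins described as hydrophilins or LEA-like, 2 were at least 2-fold higher and none lower. HSP12, which encodes a small membrane-stabilising heat shock protein, had a log2 fold change of 3.17 (3.08 to 3.27), with 7977 counts in cdc55Δ and 993 in WT. STF2, whose product protects against desiccation, had 1664 counts in cdc55Δ and 806 in WT, a log2 fold change of 1.21 (1.09 to 1.34). ROQ1 had a log2 fold change of 0.71, NOP6 one of 0.05 and YNL190W one of -0.26. The median of the 5 genes was 0.71, against 0.00 over all well-counted features. Of those features, 1.91% rose 2-fold or more and 1.03% fell by as much.

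Among 36 general stress genes that Msn2/4p are known to control, 20 were at least 2-fold higher and none at least 2-fold lower, with a median log2 fold change of 1.14. SSA4, an Hsp70 gene, had the lowest value, -0.28. For this list and the next, the background is that 1.91% of all well-counted features rose 2-fold or more and 1.03% fell by as much. Of 14 osmotic response genes, 13 were well counted, 5 of these were at least 2-fold higher, and their median was 0.62. CTT1, HSP12, GPD1, GRE3 and ALD3 stand in both of these lists, and HSP12 also stands among the hydrophilins. Of the 5 well-counted osmotic response genes that were at least 2-fold higher, all but GPP2 are among these shared genes. GPP2, a glycerol phosphatase gene, had a log2 fold change of 1.22, whereas its paralog GPP1 was at 0.04 and the sodium pump gene ENA1 at -0.12, the lowest of this list. These lists were written with earlier results of these libraries known, so their counts are no independent evidence of a direction.

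DDR2 and DDR48 are named for DNA damage. Of 12 other DNA damage response genes none was at least 2-fold higher or lower, where 1.91% of all well-counted features were 2-fold higher and 1.03% 2-fold lower, so a count of 0 in a list of this size is near the background. Their median log2 fold change was 0.18, against 0.00 over all well-counted features. RNR2, a ribonucleotide reductase gene, was highest at 0.55 (0.52 to 0.59), and DIN7 lowest at -0.33 (-0.53 to -0.13). HUG1, a gene that damage induces strongly, had 149 counts in cdc55Δ and 191 in WT, a log2 fold change of -0.19 (-0.51 to 0.13). Of 13 genes for regulators of stress responses, none was at least 2-fold higher or lower, which is likewise near the background. MSN4 was highest at 0.99 (0.89 to 1.10), and SMP1, a factor of the Hog1p pathway, lowest at -0.85 (-1.17 to -0.55), with 132 counts in cdc55Δ and 268 in WT. HOG1 had a log2 fold change of 0.32 and its upstream kinase gene PBS2 one of -0.11.

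**Figure D5:**
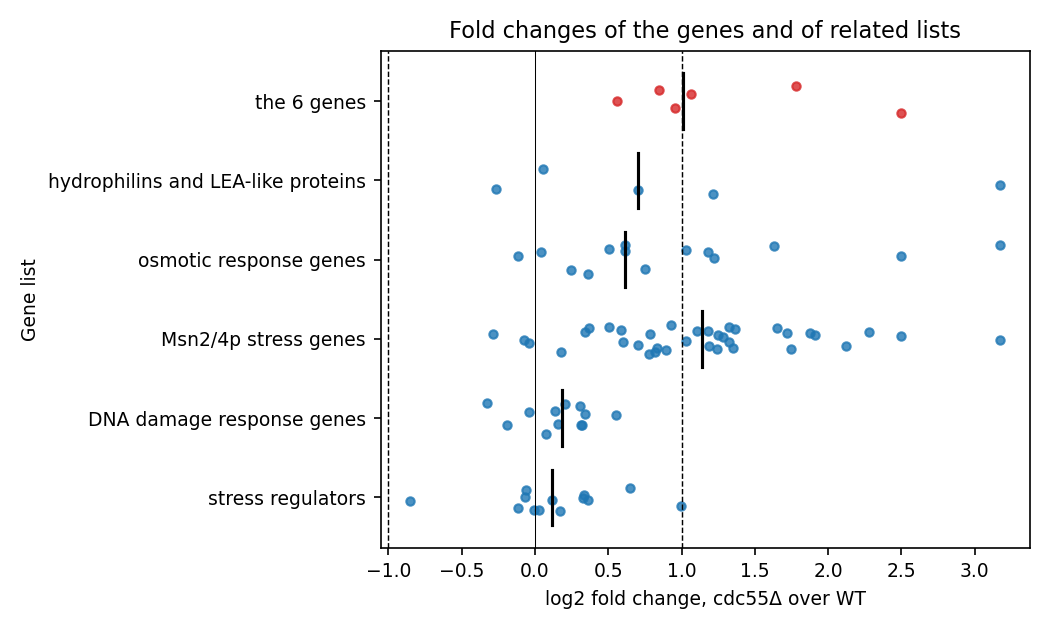
Log2 fold changes of cdc55Δ over WT for the 6 genes (red) and for the genes of 5 related lists (blue, 1 point per gene, some genes in more than 1 list). Black bars mark medians, over all of the 6 genes (1.01) and otherwise over well-counted genes, and dashed lines mark 2-fold.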

How the data were processed

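RNA was extracted from 1 culture each of cdc55Δ and WT cells, depleted of rRNA and made into directional libraries, and whole-number counts per annotated transcript were deposited by the authors, who used hisat2 and the S288C reference for mapping. The processing notes also name Cutadapt and featureCounts. The strand setting and the handling of reads with several sites are not given in the sources used here. RPKM values, which the authors derived from counts, listed lengths and library totals, are quoted as deposited, and the deposited TPM values were not used. The listed lengths are coding lengths, with 99.2% of those of mRNAs being multiples of 3.

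Of 6106 features with an accession, 6103 were matched to the RefSeq annotation of R64. TMM factors came from edgeR 4.0.16 under R 4.3.3, and log2 fold changes with a prior count of 0.5 and Clopper-Pearson intervals were computed in Python 3.11.15 with SciPy 1.17.1. PCR copies are not independent molecules, so intervals cover counting error only. With a single library of each strain there is no replicate error, so no test between strains was run and no p-value is printed. Fold changes and intervals were tested on simulated data that held counting error alone. That check therefore says nothing about error between cultures or from PCR copies. Proteins were aligned with Biopython 1.88 and BLOSUM62, and sequences are those of RefSeq for R64. The 6 genes and all lists were chosen with earlier results of these data known. Besides the 6 genes, the text names CDC55, strain markers, SDO1, flanking genes, the highest and lowest gene of each list and the 2 nearest mRNAs in RPKM, and other list members it names were chosen after their values were seen. Alternatives were DESeq2 1.42.0 size factors, library size, upper-quartile and iterated DEGES normalization, TMM over mRNAs, other prior counts, count minimums and folds, shares per length and a longer upstream window.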

Additional observations from a re-analysis of the deposited data

How the results depend on the processing

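Every log2 fold change of the 6 genes stayed positive under the 7 alternatives of scaling and prior count. Each alternative scaling moved all features by the same amount, between -0.042 and 0.005, too little to change the sign of these values. The values ranged from 2.45 to 2.50 for RTC3, 1.72 to 1.79 for GRE1, 1.02 to 1.07 for DDR48, 0.82 to 0.96 for DDR2, 0.79 to 0.85 for SIP18 and 0.52 to 0.56 for HOR7. Only that of DDR48 under upper-quartile normalization, 1.02, left its counting interval, and it stayed above 2-fold. Without a count minimum, 170 features were at least 2-fold higher and 163 lower, and with a minimum of 10 normalized counts 94 were lower. At 1.5-fold, 296 of the 5705 well-counted features were higher and 169 lower. Of the 13 well-counted osmotic response genes 8 were higher at 1.5-fold. Of the 13 stress regulator genes 2 were higher and 1 lower. Per length, the share of SIP18 in its pair was 38.5% in cdc55Δ and 54.5% in WT. With 500 bases in place of 250 before the start codon, STRE matches were 3 for RTC3, in place of 1, and 2 each for HOR7, SIP18 and DDR48, in place of 0, 0 and 1. No paired analysis was possible because each strain has 1 library, and for the same reason no library could be left out.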

Other observations

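Of the 75 yeast proteins that met the hydrophilin criterion, 72 came from well-counted genes, of which 6 (8.33%) rose 2-fold or more in cdc55Δ and none fell 2-fold or more. Over all well-counted features, 1.91% rose and 1.03% fell 2-fold or more. Besides GRE1 and DDR48, the 6 genes that rose were HSP12, TMA10, OM45 and STF2. TMA10, which encodes a small ribosome-associated protein related to Stf2p, had a log2 fold change of 1.65, and OM45, which encodes a protein of the mitochondrial outer membrane, one of 1.28. Of the 69 genes other than GRE1, DDR48 and SIP18, 4 rose 2-fold or more. The median of the 69 was 0.07, so most genes of this protein class had values near those of all features. Of 221 well-counted genes for proteins of at most 100 residues, 8 (3.62%) rose 2-fold or more and 4 fell 2-fold or more. The shares over all well-counted features were 1.91% and 1.03%. The median of the 221 genes was 0.04.

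Across all well-counted genes, the log2 fold change was higher where more STRE matches lay within 500 bases. The median was -0.02 over 3664 genes without a match, 0.04 over 1431 genes with 1, 0.18 over 343 genes with 2, 0.23 over 82 genes with 3 and 0.79 over 24 genes with at least 4. The share at least 2-fold higher was 0.546% without a match and 37.5% with at least 4. GRE1 is among the 20 genes without a match that were at least 2-fold higher. This is a description across genes, which are not replicates, and neighbouring genes can share an upstream sequence.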
